A study of Mus musculus with 12 samples.

Results

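The cartilage and tendon genes Col2a1, Scx, Mgp, Comp, Acan, Sox5, Sox6 and Sox9 were examined in mouse neural stem cells. Their probes were found by gene name among the gene probes of the array, and each of the 8 genes had 1 probe, out of 24138 genes tested. The set had been chosen by measured values of these arrays, namely the TGFb responses of both lines and the Mgp difference between the lines, so those values are given as a description without a test. Col2a1, Scx, Mgp and Sox9 were higher with TGFb in both lines, while Comp, Acan, Sox5 and Sox6 passed the threshold in neither, so the set is called here by its tissues and not as TGFb-induced genes.

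The cells came from the cerebral cortex of mouse embryos at stage E12.5 and all carried a stably introduced short hairpin RNA (shRNA). Knockdown cells carried the hairpin named sh2 against JMJD3, the histone H3 lysine 27 demethylase encoded by Kdm6b, and control cells carried a random hairpin. The 4 groups of 3 samples were knockdown cells with TGFb, knockdown cells with vehicle, control cells with TGFb and control cells with vehicle, where TGFb was given at 5 ng/ml for 2.5 h. The knockdown rests on 1 hairpin and the labels do not say whether a line was a clone or whether replicates were separate cultures, so each p-value reflects the variation among these 12 samples alone, and that variation may be technical.

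Transforming growth factor beta binds receptor kinases that activate Smad proteins, which enter the nucleus and change transcription with partner factors. In the limb and the axial skeleton this signal promotes early cartilage and tendon formation. Sox9 is the main transcription factor of cartilage cells and acts with the related factors Sox5 and Sox6 on cartilage genes such as Col2a1 and Acan. In the embryonic brain the Sox genes have other roles, and Sox9 is a regulator of neural stem cells.

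Total RNA was hybridised to 1-colour arrays. Values are given as the scaled signal, which is the scanner software's background-corrected signal multiplied so that the 75th percentile of each array equals 3915, in arbitrary units, and as log2 differences of that signal with the standard error (SE) of the fit. Before scaling, the 75th percentile ran from 3175 to 4462, between 70.7% and 78.7% of gene probes were well above background, while saturation affected 0 spots. The log2 values of replicates had correlations of 0.994 to 0.998 over the tested genes, a description across genes that do not vary independently. Kdm6b itself was lower in knockdown than in control cells, by a log2 change of -1.40 ± 0.05 with TGFb (limma adjusted p = 2.85e-08) and -1.16 ± 0.05 with vehicle (limma adjusted p = 1.05e-07). Of the markers of the labelled cell type, 10 of 10 neural stem cell markers, Nes, Sox2 and Pax6 among them, were well above background on all 12 arrays. So were 5 of 5 oligodendrocyte precursor markers and 4 of 5 neuron markers, so this criterion does not single out the labelled type.

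The probes that carry the findings are shown by the first 30 of their 60 bases, 5′ to 3′, as the scanner files list them, so that the measured stretch of each transcript can be looked up. Col2a1 is read on chromosome 15 from 97806071 to 97806130 on the minus strand and Scx on chromosome 15 from 76289708 to 76289767 on the plus strand. The Mgp probe lies on chromosome 6 from 136821125 to 136821184 on the minus strand and the Sox9 probe on chromosome 11 from 112648809 to 112648868 on the plus strand. Positions are those of build mm9 in the scanner files, and exon or UTR annotation of that build was not used here.
Col2a1: gtcctacacaatggtgctattctgtgtcaa
Scx: tgaacagagagatggacaggcgggtgatgg
Mgp: gccgaggagccagatattagcgcgaagaaa
Sox9: ataaaaccttaaagcgttcttataatatgg
The share of G and C in the whole probe was 35% for Col2a1, 55% for Scx, 45% for Mgp and 30% for Sox9. Sox9 was printed 10 times on each array, and each of the other members once. All 8 probes were well above background on 12 of 12 arrays.

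**Figure D1:**
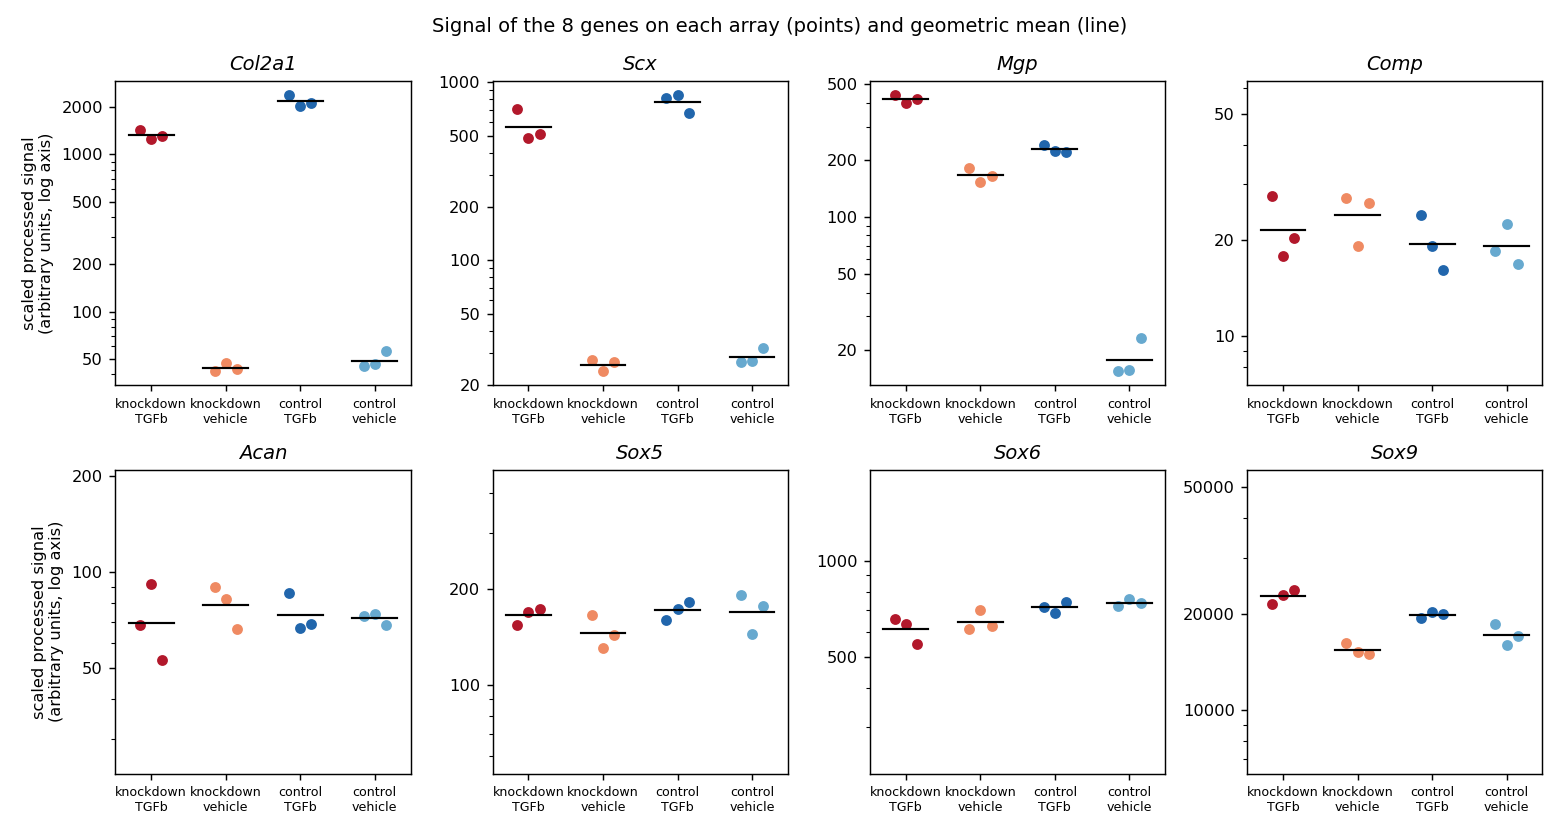
Scaled processed signal (arbitrary units, log axis) of the 8 genes on each of the 12 arrays, by group. Points are arrays and lines are geometric means of 3 arrays. Col2a1 and Scx stand high in both groups with TGFb, Mgp is low only in control cells with vehicle, Sox9 is slightly higher with TGFb, and the groups of Comp, Acan and Sox5 overlap.

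Col2a1, which encodes the fibrillar collagen of cartilage, ranked 4 of 24138 genes by its increase with TGFb in knockdown cells and 1 in control cells. Its scaled signal was 1428, 1258 and 1315 in knockdown cells with TGFb, against 41.8, 47.3 and 43.2 in knockdown cells with vehicle. It was 2390.1, 2029 and 2109 in control cells with TGFb, against 44.9, 46.3 and 56.0 in control cells with vehicle. All arrays with TGFb lay far above all arrays with vehicle, and within the TGFb arrays the knockdown and control groups did not overlap. The log2 change was 4.92 ± 0.10 in knockdown cells, or 30.3-fold, and 5.47 ± 0.10 in control cells, or 44.5-fold. Because whole cultures were measured, more cells with the transcript and more transcript per cell cannot be told apart.

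Scx encodes scleraxis, a basic helix-loop-helix transcription factor of tendon progenitors. Its scaled signal was 707, 484 and 508 in knockdown cells with TGFb, against 27.3, 23.8 and 26.8 in knockdown cells with vehicle. It was 809.7, 847 and 667 in control cells with TGFb, against 26.7, 27.1 and 32.1 in control cells with vehicle. Every TGFb array was far above every vehicle array, but the knockdown and control ranges with TGFb overlapped through the first knockdown replicate. The log2 change with TGFb was 4.43 ± 0.16 in knockdown cells and 4.76 ± 0.16 in control cells, rank 6 of the genes tested in knockdown cells and rank 4 in control cells. On the 12 arrays Scx and Col2a1 ran together with a Pearson r of 0.998, a description over arrays of 4 groups in which the TGFb change dominates.

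Mgp encodes matrix Gla protein, a secreted inhibitor of calcification made by cartilage cells and by vascular smooth muscle. Its scaled signal was 441, 398 and 418 in knockdown cells with TGFb, against 182, 154 and 164 in knockdown cells with vehicle. It was 240.2, 223 and 221 in control cells with TGFb, against 15.4, 15.5 and 23.1 in control cells with vehicle. The 4 groups therefore stood in a strict order with no overlap between neighbours: knockdown with TGFb, control with TGFb, knockdown with vehicle and, lowest, control with vehicle. The log2 change with TGFb was 1.33 ± 0.15 in knockdown cells, or 2.52-fold, and 3.69 ± 0.15 in control cells, or 12.9-fold. Before scaling, the control vehicle signals, at most 20.8, lay near the lowest signal of any probe called well above background, which ran from 8.11 to 16.8 over the arrays.

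Sox9 was bright in every group. Its scaled signal was 21523, 23005 and 23895 in knockdown cells with TGFb, against 16192, 15204 and 15015 in knockdown cells with vehicle. It was 19493, 20263 and 20055 in control cells with TGFb, against 18680, 16045 and 17105 in control cells with vehicle. The TGFb arrays lay above the vehicle arrays of the same line in both lines, by a log2 change of 0.56 ± 0.06 in knockdown cells and 0.21 ± 0.06 in control cells. The call in control cells was marginal and was lost in 6 of 10 other settings of the processing, while the change itself stayed between 0.19 and 0.23 in these.

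The other 4 members passed the threshold in neither line. Comp, which encodes an extracellular matrix protein of cartilage and tendon, ranged from 17.9 to 27.5 in knockdown cells with TGFb, against 19.3 to 27.2 with vehicle, and from 16.2 to 24.1 in control cells with TGFb, against 16.9 to 22.5 with vehicle. Acan encodes aggrecan, the large proteoglycan of cartilage, and ranged from 53.1 to 92.0 in knockdown cells with TGFb, against 66.4 to 89.8 with vehicle, and from 66.7 to 85.8 in control cells with TGFb, against 68.3 to 74.2 with vehicle. The TGFb and vehicle arrays of both genes overlapped in each line.

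Sox5 ranged from 154 to 173 in knockdown cells with TGFb, against 130.4 to 166 with vehicle, and from 159.9 to 182 in control cells with TGFb, against 144 to 191 with vehicle. Sox6 ranged from 547 to 655 in knockdown cells with TGFb, against 612 to 701 with vehicle, and from 687 to 744 in control cells with TGFb, against 720.4 to 758 with vehicle. Overlap was seen here too. The log2 changes of Comp, Acan, Sox5 and Sox6 with TGFb lay between -0.18 and 0.18 in knockdown cells and between -0.05 and 0.03 in control cells. The 95% intervals were narrowest for Sox6 (-0.25 to 0.10 in knockdown cells, -0.22 to 0.13 in control cells) and widest for Comp (-0.68 to 0.38 in knockdown cells, -0.50 to 0.56 in control cells).

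By the threshold used for all genes, a limma adjusted p under 0.05, 4 of the 8 members were called with TGFb in knockdown cells, where 9.49% of all genes were called (4.74% higher and 4.75% lower), and the same 4 in control cells, where 10.2% were called (5.43% higher and 4.72% lower). All 4 were higher. The median log2 change over the 8 members was 0.37 in knockdown cells, where that of all genes was -0.02, and 0.12 in control cells, where that of all genes was -0.01. Since these contrasts chose the set, nothing is read from the counts. The TGFb changes also held within slides, although only slide 3 held both treatments of the knockdown line: there the knockdown changes were 5.05 for Col2a1, 4.72 for Scx, 1.43 for Mgp and 0.52 for Sox9. On the 2 slides that held both control groups, the control changes were 5.18 and 5.69 for Col2a1, 4.72 and 4.90 for Scx, 3.27 and 3.95 for Mgp, and 0.24 and 0.28 for Sox9.

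Col2a1, Scx and Mgp were dim with vehicle, and the size of their TGFb change differed between versions of the values. The cause of that was not tested. In the authors' deposited log2 values Mgp read 8.85, 8.68 and 8.84 in knockdown cells with TGFb, against 7.91, 7.72 and 7.83 with vehicle, and 8.12, 8.15 and 8.14 in control cells with TGFb, against 6.53, 6.53 and 6.70 with vehicle. The groups kept the order they had on the processed signal, with smaller gaps between control vehicle and the other groups, in a table whose lowest value is 5.66. On the authors' values the TGFb change of Mgp was 0.97 ± 0.07 in knockdown cells and 1.55 ± 0.07 in control cells, and that of Scx was 2.62 in knockdown cells and 3.02 in control cells.

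Col2a1 had TGFb changes of 3.50 in knockdown cells and 4.02 in control cells on the authors' values. Sox9, which was bright throughout, had changes of 0.54 in knockdown cells and 0.19 in control cells on the authors' values. The normexp background correction with an offset of 50, applied to the raw spot and background signals, gave 0.97 in knockdown cells and 1.51 in control cells for Mgp. Adding 50 units to the scaled signal gave 1.12 in knockdown cells and 2.03 in control cells for Mgp, between the processed signal and the other versions.

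**Figure D2:**
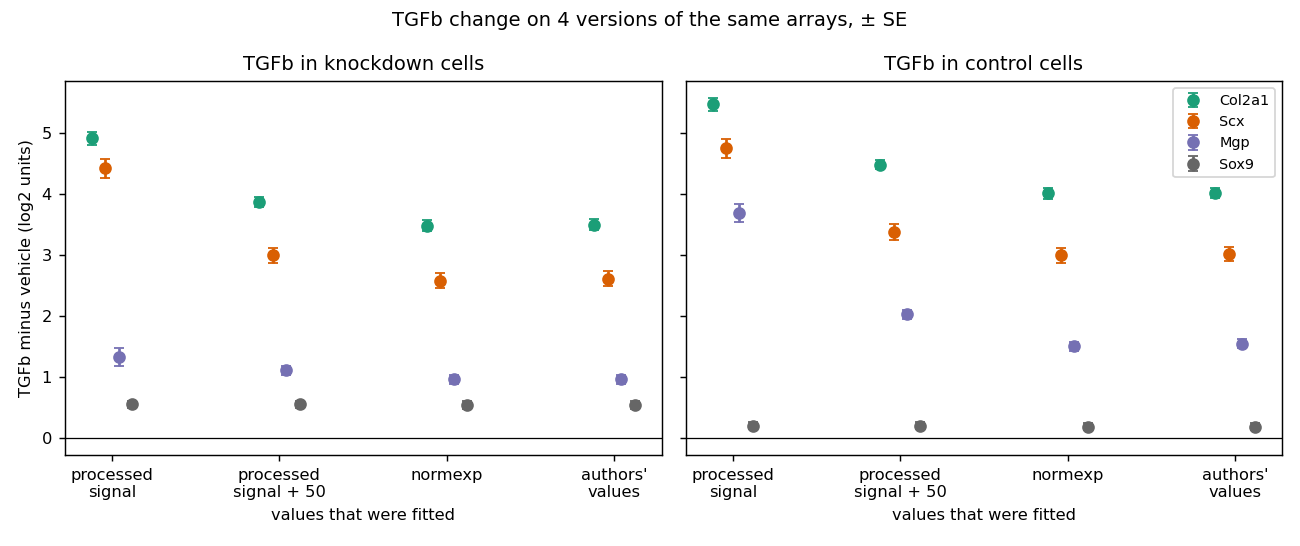
TGFb minus vehicle in log2 units (± SE) for Col2a1, Scx, Mgp and Sox9 in knockdown cells (left) and control cells (right), fitted on the processed signal, the processed signal plus 50, normexp-corrected signal and the authors' values. Mgp in control cells is 3.69 on the processed signal and 1.55 on the authors' values, and Sox9 is 0.21 and 0.19.

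In the contrasts of knockdown with control cells under 1 treatment, the members other than Mgp were tested. These contrasts use the same arrays as the TGFb responses that chose the set, so their p-values are not independent of that choice. The Mgp difference that helped choose the set is the difference between its knockdown changes with TGFb and with vehicle, so those changes of Mgp are a description. Without TGFb, 1 of the 8 members was called, Mgp, where 27.8% of all genes were called. Mgp was 9.38-fold higher in knockdown than in control cells with vehicle, a log2 change of 3.23 ± 0.15, rank 3 of the 24138 genes by increase. The 3 knockdown arrays lay above the 3 control arrays, and the change was 2.82 to 3.56 on the 3 slides that held both groups. On the authors' values it was 1.23 ± 0.07 and with normexp 1.196 ± 0.07, smaller but still past the threshold used for all genes.

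The other 7 members did not pass the test with vehicle. Col2a1 had a log2 change of -0.15 ± 0.10 (limma adjusted p = 0.367) and Scx one of -0.14 ± 0.16 (adjusted p = 0.625), with intervals of -0.38 to 0.08 for Col2a1 and -0.48 to 0.20 for Scx. Sox9 had -0.16 ± 0.06 (limma adjusted p = 0.0756) and Sox6 -0.20 ± 0.08 (adjusted p = 0.095). The knockdown arrays of Sox6 all lay below the control arrays, and those of Sox9 overlapped them. Sox6 was called lower on the authors' values (limma adjusted p = 0.0475) and with normexp (adjusted p = 0.0434), and Sox9 with slide as a block (adjusted p = 0.0139) or without control vehicle replicate 2 (-0.21, adjusted p = 0.0288). Comp, Acan and Sox5 had changes of 0.32 ± 0.24, 0.13 ± 0.20 and -0.22 ± 0.13.

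With TGFb, 4 of the 8 members were called, where 29% of all genes were called (12% higher and 17% lower). Col2a1 was 1.63-fold lower in knockdown than in control cells, a log2 change of -0.70 ± 0.10 (limma adjusted p = 0.000417), with no overlap between the arrays and changes of -0.51 and -0.71 within the 2 slides that held both groups. Mgp was 1.84-fold higher, by 0.88 ± 0.15, again without overlap, and by 0.88 and 0.98 within slides. Col2a1 and Mgp, both higher with TGFb, thus differed between the lines in opposite directions. The Col2a1 call held in all 10 other settings and without each array in turn. The Mgp value stayed past the threshold in these too, but it is a description.

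Sox9 was 1.14-fold higher in knockdown than in control cells with TGFb, by 0.19 ± 0.06 (limma adjusted p = 0.0315), with no overlap between the arrays and changes of 0.09 and 0.23 within slides. Its call was lost with median scaling (0.17, adjusted p = 0.139), and without any 1 of the 3 control TGFb arrays, in replicate order (0.18, 0.20 and 0.20, adjusted p = 0.0886, 0.0631 and 0.0572) or without knockdown TGFb replicate 2 or 3 (0.19 and 0.16, adjusted p = 0.0864 and 0.123). Scx was lower by 0.47 ± 0.16 on the log2 scale (a change of -0.47, limma adjusted p = 0.0433), but its arrays overlapped, and within slides the changes were -0.26 and -0.43. Its call was lost with quantile normalization (adjusted p = 0.0765), median scaling (0.0816) and no filter on dim probes (0.0646), and when 1 array was left out, for replicates 2 and 3 of knockdown with TGFb, 1 and 3 of knockdown with vehicle, 1 and 2 of control with TGFb and 1 and 2 of control with vehicle (changes of -0.36 to -0.47, adjusted p between 0.05 and 0.164).

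Sox6 was lower by a change of -0.23 ± 0.08 and just missed the threshold with TGFb (limma adjusted p = 0.0546), with the knockdown arrays below the control arrays. It was called with quantile normalization (-0.27, adjusted p = 0.032), without knockdown vehicle replicate 2 (-0.23, adjusted p = 0.0473) and without knockdown TGFb replicate 1 (-0.28, adjusted p = 0.0339). Comp, Acan and Sox5 had changes of 0.14 ± 0.24, -0.08 ± 0.20 and -0.05 ± 0.13, with adjusted p of 0.715, 0.815 and 0.811.

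**Figure D3:**
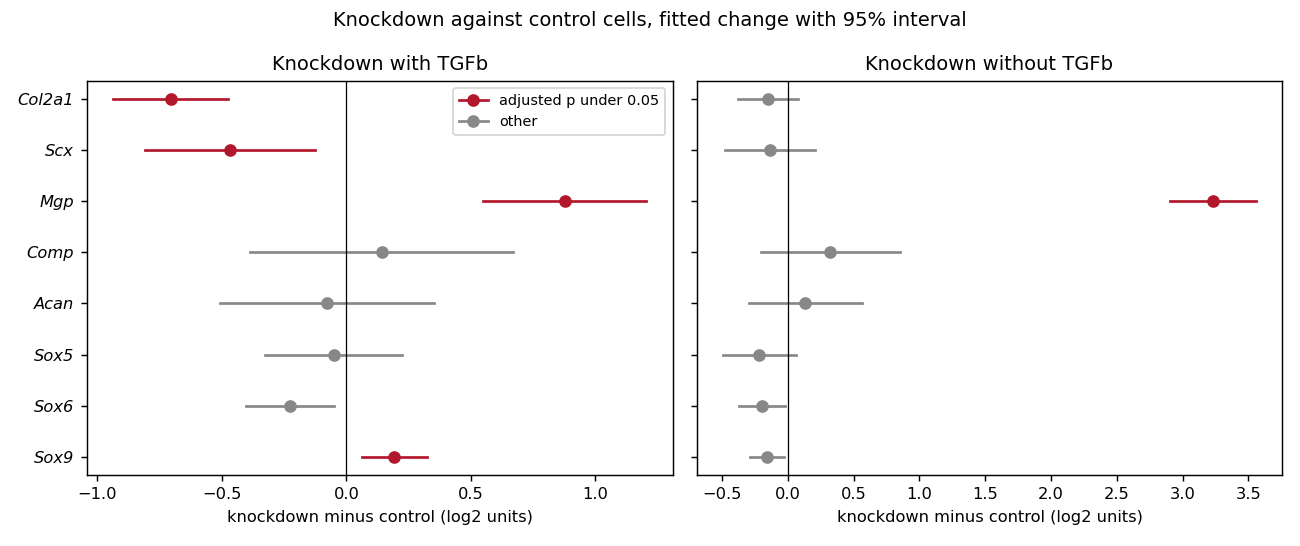
Knockdown minus control in log2 units for the 8 genes, with TGFb (left) and with vehicle (right). Points are fitted changes, bars are 95% intervals, and red marks an adjusted p under 0.05. The 2 panels have different horizontal scales. Mgp is the one gene called in both, at 0.88 with TGFb and 3.23 with vehicle.

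The difference of the TGFb responses, knockdown minus control, asks whether JMJD3 knockdown changes the response itself. Of the 8 members 1 was called, Mgp, where 0.087% of all genes were called (0.0456% higher and 0.0414% lower). Mgp had been chosen with this difference known, and its value of -2.35 ± 0.21 is a description. On the authors' values it was -0.58 ± 0.11 and with normexp -0.54 ± 0.10, and on neither did Mgp pass the threshold. The difference is made of the TGFb responses of both lines, which chose the set, so the values of the other 7 genes are a description too. By the threshold used for all genes, 0 of these 7 passed. Col2a1 had a difference of -0.56 ± 0.15 (interval -0.88 to -0.23), Sox9 one of 0.35 ± 0.08 (interval 0.16 to 0.54) and Scx one of -0.33 ± 0.22 (interval -0.81 to 0.16). The intervals of Col2a1 and Sox9 do not include 0 when each is taken alone, and neither gene passed after adjustment over all genes. Comp, Acan, Sox5 and Sox6 had differences from -0.21 to 0.17.

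The Mgp difference changed sign between the log2 and the linear scale. In scaled signal units, TGFb added 252 ± 14.8 to Mgp in knockdown cells and 210.1 ± 6.57 in control cells (SE, n = 3 arrays per group), so the increment was larger in knockdown cells by 42.3 ± 16.2 units, although the log2 change was smaller. The increment in knockdown cells was 115% to 125% of that in control cells when each array in turn was left out, and 117% on the authors' values turned back from log2. The increments were compared after the values had been seen and were not tested.

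Col2a1 showed no such reversal. TGFb added 1290 ± 50 units to Col2a1 in knockdown cells and 2127 ± 110 in control cells, so that the knockdown increment was 60.6% of the control one. For Scx the increments were 540.5 ± 70.5 units in knockdown cells and 746 ± 54.8 in control cells, and for Sox9 they were 7337 ± 782 in knockdown cells and 2661 ± 799 in control cells. On both scales Col2a1 and Scx had the smaller value in knockdown cells and Sox9 the larger one.

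**Figure D4:**
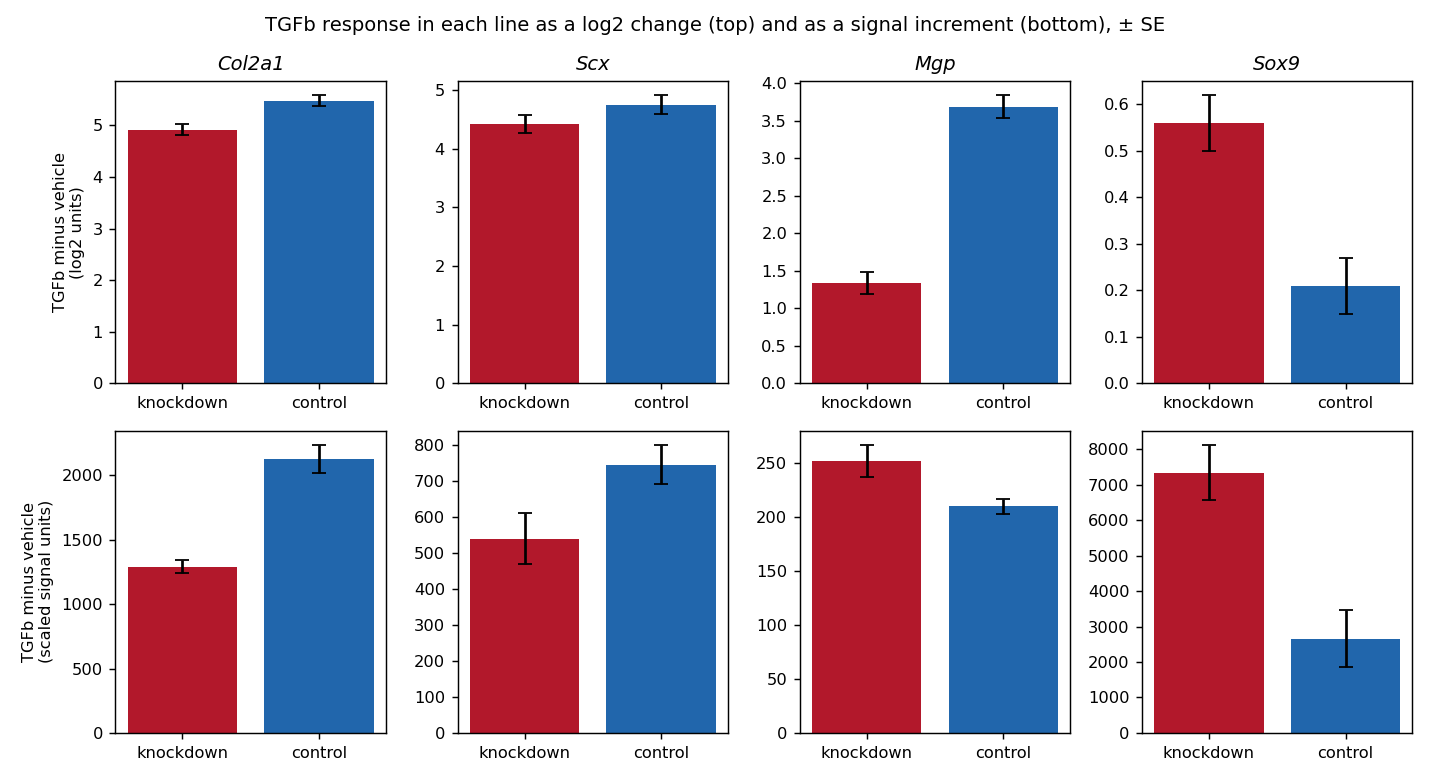
TGFb response of Col2a1, Scx, Mgp and Sox9 in knockdown and control cells, as a log2 change (top row) and as an increment of scaled signal (bottom row). Bars are TGFb minus vehicle over 3 arrays per group, and error bars are SE. For Mgp the knockdown bar is the lower one on the log2 scale (1.33 against 3.69) and the higher one on the signal scale (252 against 210.1).

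Other genes of the same tissues were described from lists of genes that are not members. Of 13 measured genes of cartilage matrix, 1 rose with TGFb in knockdown cells, where 4.74% of all genes rose, and 2 rose in control cells, where 5.43% did. None fell in either line (0 of 13 in each). The list's median log2 change was 0.10 in knockdown cells and -0.06 in control cells, near the median of all genes in both (-0.02 in knockdown cells and -0.01 in control cells). Col27a1, a fibrillar collagen gene, rose by 0.86 ± 0.16 in knockdown cells (limma adjusted p = 0.00535) and by 1.41 ± 0.16 in control cells (adjusted p = 0.000127). Col11a2, a collagen gene of cartilage fibrils, had a change of 0.60 ± 0.21 in knockdown cells (limma adjusted p = 0.117) and 0.80 ± 0.21 in control cells (adjusted p = 0.031). The control call was lost with slide as a block (adjusted p = 0.0604), with a replicate block (0.0582), without control TGFb replicate 1, 2 or 3 (0.82, 0.75 and 0.84, adjusted p = 0.0679, 0.109 and 0.0685) and without control vehicle replicate 1 (0.60, adjusted p = 0.113). On the authors' values the control change was 0.28 and with normexp 0.27, both called, and the difference between the lines did not pass (-0.20, adjusted p = 0.964). With only probes well above background on all arrays, Col11a2 was not measured, and 1 gene of the list was called in control cells.

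Of 19 measured cartilage regulators, 4 rose and 2 fell in each line, where 4.74% of all genes rose and 4.75% fell in knockdown cells and 5.43% rose and 4.72% fell in control cells. The 4 in each line include Gdf5, whose probes disagreed. Creb3l2, an endoplasmic reticulum factor needed for collagen secretion in cartilage, rose by 1.31 ± 0.07 in knockdown cells and 1.23 ± 0.07 in control cells. Sox8, a close relative of Sox9, rose by 0.76 ± 0.07 in knockdown cells and 0.53 ± 0.07 in control cells, and the parathyroid hormone receptor gene Pth1r by 0.65 ± 0.09 in knockdown cells and 0.86 ± 0.09 in control cells. Bmpr1b, a BMP receptor gene of cartilage condensations, fell by 0.77 ± 0.07 in knockdown cells and by 0.85 ± 0.07 in control cells. Each of these had a limma adjusted p of 0.000802 or lower. The joint factor gene Gdf5 had 2 kept probes: the brighter one gave 2.34 in knockdown cells and 1.94 in control cells, and the other 0.37 in knockdown cells and 0.70 in control cells. When 1 of 7 arrays was left out the other probe was the brighter one and the call was lost.

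Of 23 measured tendon genes, 3 rose with TGFb in knockdown cells, where 4.74% of all genes rose and 4.75% fell. In control cells 4 rose, where 5.43% of all genes rose and 4.72% fell. None of the tendon genes fell in either line (0 of 23). Mkx encodes Mohawk, a homeodomain factor of tendon, and rose by 1.24 ± 0.07 in knockdown cells and 1.39 ± 0.07 in control cells. Tgfbi, a TGFb-induced matrix protein gene, rose by 1.99 ± 0.09 in knockdown cells and 1.41 ± 0.09 in control cells, and Col1a1 by 1.27 ± 0.11 in knockdown cells and 1.11 ± 0.11 in control cells. All 3 had limma adjusted p of 4.55e-05 or lower. Thbs2 was also called in control cells, at 0.67 ± 0.18 (limma adjusted p = 0.034). Its call was lost with no filter on dim probes (adjusted p = 0.0544) and without some single arrays. Of 9 measured bone and mineral genes, beside the same shares of all genes, 2 rose and 1 fell in knockdown cells, and 1 rose and 1 fell in control cells. The 2 in knockdown cells include Ank, at 0.27 ± 0.06 (limma adjusted p = 0.0167). Its call was lost with normexp (adjusted p = 0.172), on the authors' values (0.176), with median scaling (0.134) and without some single arrays. Enpp1, which makes the mineralisation inhibitor pyrophosphate, rose by 0.67 ± 0.13 in knockdown cells and 0.84 ± 0.13 in control cells, and Dmp1, a bone matrix phosphoprotein gene, fell by 0.77 ± 0.09 in knockdown cells and by 0.85 ± 0.09 in control cells. By comparison, 7 of 7 measured feedback genes of TGFb signalling rose in each line, with a median of 3.31 in knockdown cells and 3.00 in control cells. This list too was chosen with earlier results of these data known, so nothing is read from its count.

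**Figure D5:**
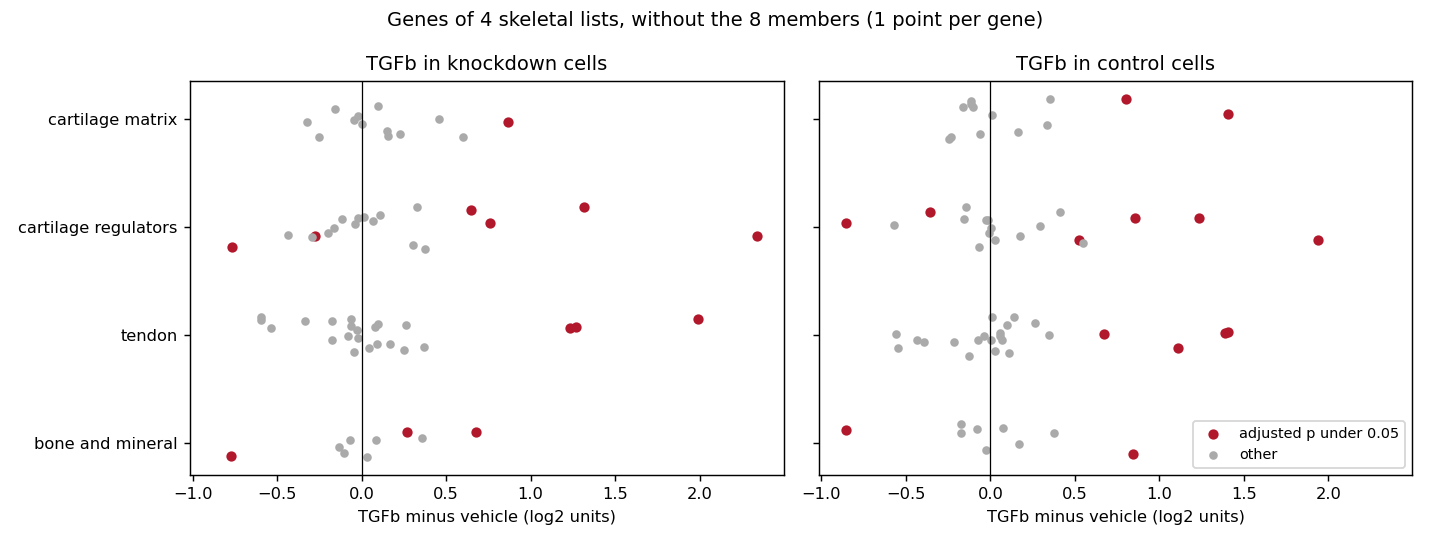
TGFb minus vehicle in log2 units for the measured genes of the cartilage matrix, cartilage regulator, tendon, and bone and mineral lists, without the 8 members, in knockdown cells (left) and control cells (right). Each point is a gene, red marks an adjusted p under 0.05, and vertical spread within a list has no meaning. Most points lie near 0, and the largest value in each panel is that of Gdf5, 2.34 in knockdown and 1.94 in control cells, from the brighter of its 2 probes.

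Some genes of these lists differed between the lines, in a comparison where many genes did: 12% of all genes were higher and 17% lower in knockdown cells with TGFb, and 3020 of the 24138 were higher and 3702 lower with vehicle. Of the 13 cartilage matrix genes, 0 were higher and 2 lower with TGFb, and 1 was higher and 2 lower with vehicle. The 2 lower genes include Col9a1, whose 2 kept probes disagreed. The brighter one gave -0.42 with TGFb and -0.28 with vehicle, and the other 0.21 with TGFb and 0.04 with vehicle. With the mean of its kept probes the call was lost with TGFb (limma adjusted p = 0.698) and with vehicle (adjusted p = 0.701). Matn2, a matrilin gene, was lower in knockdown than in control cells by -0.79 ± 0.05 with TGFb and -0.74 ± 0.05 with vehicle. Of the 23 tendon genes, 2 were higher and 4 lower with TGFb, and 2 higher and 7 lower with vehicle. Nothing particular to the lists is read from these counts. Egr1, an early growth response factor that in mice and chickens also acts in tendon, was lower by -1.17 ± 0.17 with TGFb and -1.12 ± 0.17 with vehicle, and the collagen VI gene Col6a1 by -0.77 ± 0.06 with TGFb and -0.69 ± 0.06 with vehicle.

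Of the 9 bone and mineral genes, 3 were higher and 0 lower with TGFb, and 3 were higher and 1 lower with vehicle, and Spp1, Alpl and Dmp1 were the 3 under both treatments. Ank, a pyrophosphate transport gene, was the lower one, at -0.24 ± 0.06 (limma adjusted p = 0.0129). Its call was lost with normexp (-0.17, adjusted p = 0.16), on the authors' values (-0.17, adjusted p = 0.164) and with median scaling (-0.23, adjusted p = 0.0702). It was also lost without control vehicle replicate 1 or knockdown vehicle replicate 2 or 3. Spp1, which encodes osteopontin, was higher by 0.80 ± 0.07 with TGFb and 1.01 ± 0.07 with vehicle, and Alpl, the tissue-nonspecific alkaline phosphatase gene, by 0.72 ± 0.12 with TGFb and 0.74 ± 0.12 with vehicle. Dmp1 was higher by 0.94 ± 0.09 with TGFb and 0.85 ± 0.09 with vehicle. Each of these changes of Matn2, Egr1, Col6a1, Spp1, Alpl and Dmp1 had a limma adjusted p of 0.000732 or lower.

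The genes whose log2 values ran most like those of Col2a1 over the 12 arrays were Rasl11b (Pearson r = 0.998), Acox2 (0.997) and Arhgef6 (0.997), and 2 further probes were named only by a transcript identifier. Rasl11b encodes a small GTPase and Acox2 a peroxisomal oxidase. Their TGFb changes were smaller than that of Col2a1, at 2.31 in knockdown cells and 2.45 in control cells for Rasl11b, 3.82 in knockdown cells and 3.90 in control cells for Acox2, and 2.01 in knockdown cells and 2.20 in control cells for Arhgef6.

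The 5 genes most like Mgp were Tmem159 (r = 0.973), Fstl1 (0.973), Zfp395 (0.970), Cyp26b1 (0.967) and Sbk1 (0.967). Cyp26b1, which encodes an enzyme that degrades retinoic acid, had a TGFb change of 0.92 in knockdown cells and 1.56 in control cells, and was higher in knockdown cells by 0.54 with TGFb and 1.18 with vehicle. Tmem159 had a TGFb change of 1.79 in knockdown cells and 2.66 in control cells, and was higher in knockdown cells by 1.07 with TGFb and 1.95 with vehicle. These genes were picked for their likeness over all 4 groups, so their order of groups is no independent result.

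Some markers of cartilage and tendon cells were well above background and others were not. Of 10 chondrocyte markers, 6 were well above background on all arrays and 3, Matn1, Cnmd and Col10a1, on none. The summed signal of the 7 chondrocyte markers other than Col2a1, Acan and Comp was 367 to 395 in knockdown cells with TGFb, against 401 to 461 with vehicle, and 451 to 482 in control cells with TGFb, against 445 to 534 with vehicle. It was lower with TGFb in knockdown cells and overlapped in control cells, and most of it was Col9a1. In knockdown cells Col9a1 was 260 to 301 with TGFb, against 317 to 368 with vehicle. Matn3 went the other way there, at 33.2 to 38.6 with TGFb, against 29.6 to 32.2 with vehicle, while Hapln1 and Snorc overlapped. In control cells Matn3 was also higher, at 30.3 to 34.4 with TGFb, against 24.8 to 27.7 with vehicle, while Col9a1, Hapln1 and Snorc overlapped. With Col2a1, Acan and Comp the sum was 1755 to 1919 in knockdown cells with TGFb, against 537 to 609.6 with vehicle. In control cells that sum was 2566 to 2982 with TGFb, against 587 to 677 with vehicle.

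Of 6 tenocyte markers, 4 (Scx, Mkx, Thbs4 and Fmod) were well above background on all arrays and Tnmd and Kera on none. The summed signal of the 5 tenocyte markers other than Scx was 734 to 821 in knockdown cells with TGFb, against 376 to 389 with vehicle, and 622 to 681 in control cells with TGFb, against 284 to 343 with vehicle, and most of it was Mkx. Of 6 neural crest markers, 4 were well above background on all arrays and Foxd3 on none. Their sum was 15195 to 15637 in knockdown cells with TGFb, against 10377 to 11821 with vehicle, and 13422 to 14478 in control cells with TGFb, against 10452 to 11221 with vehicle, and most of it was Ets1.

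Of 9 meningeal or fibroblast markers, 5 were well above background on all arrays and Twist1 on none. Their sum was 20299 to 22092 in knockdown cells with TGFb, against 23068 to 26577 with vehicle, and 16914 to 19883 in control cells with TGFb, against 19362 to 21355 with vehicle. Foxc1 made up most of it, and was lower with TGFb in knockdown cells but overlapped in control cells. Prrx1 was lower in both lines, while Col1a1 went the other way and was higher in both without overlap. Pdgfrb, not well above background on most arrays, was higher in control cells and overlapped in knockdown cells. The other markers of this list overlapped in both lines. The 5 oligodendrocyte precursor markers summed to 138130 to 151020 in knockdown cells with TGFb, against 160660 to 169560 with vehicle, and to 146850 to 148280 in control cells with TGFb, against 180220 to 195500 with vehicle. This sum was lower with TGFb in both lines without overlap. Most of it was Olig1, which was lower in control cells but overlapped in knockdown cells. Olig2 was 32116 to 35425 in knockdown cells with TGFb, against 45330 to 48710 with vehicle. In control cells Olig2 was 29526 to 32026 with TGFb, against 53876 to 59613 with vehicle. Pdgfra was also lower in both lines, Cspg4 was higher in control cells and overlapped in knockdown cells, and Sox10 overlapped in both. The part of such cells in the results on the members was not tested.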

How the data were processed

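Total RNA of 12 samples was copied from an oligo-dT primer and carried the dye Cy3, per the labels. The deposited scanner files hold spot intensities on a linear scale from Feature Extraction 10.7.3.1, whose processed signal is background-corrected, per the file headers. The authors also deposited log2 values whose 12 columns share a median of 7.93 and a minimum of 5.66. Each column tracked its own array (r of 0.818 to 0.968 on gene-centred values, at most 0.761 to any other array), which sets its scale and direction, while its background correction is not given in the sources used here.

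Spots of a probe were averaged (43020 gene spots, 39429 probes). Control spots were left out. From the log2 processed signal the 75th percentile of its array was subtracted. A probe was kept if all 3 arrays of some group had it well above background (29960 probes), and the brightest one stood for its gene. RefSeq accessions (GRCm38.p6, names only) named 26055 probes. One limma 3.58.1 fit (R 4.3.3, 8 residual and 3.11 prior degrees of freedom, trend) gave 5 two-sided contrasts with Benjamini-Hochberg adjustment over 24138 genes. Precision is limited by the array number, with a median SE of 0.10 between groups and 0.14 for differences of responses.

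Members, lists and named genes (per list, up to 4 called genes with the largest change in each contrast, of which some are given, and the 5 genes most like Col2a1 and Mgp) were chosen with earlier results of these data known. Of the 8 members, 3 (Acan, Sox5 and Sox6) had an entry in RefSeq's promoter table, and promoters were not used. Alternatives were normexp, the authors' values, quantile and median scaling, other filters and probe rules, slide and replicate blocks, each array left out and, chosen after seeing the data, an offset of 50 and signal increments.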

Additional observations from a re-analysis of the deposited data

Results flagged for a closer look

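The TGFb response of Mgp differed between the lines by -2.35 on the log2 scale (knockdown minus control, SE 0.21), which limma called over all genes. On the authors' values the difference was -0.58 and with normexp -0.54, and on neither was it called. The gene had been chosen with that difference known, so the value is a description. Its scaled signal was 398 to 441 with TGFb and 154 to 182 with vehicle in knockdown cells, and 221 to 240.2 with TGFb and 15.4 to 23.1 with vehicle in control cells. In signal units the increment was larger in knockdown cells by 42.3 ± 16.2. Groups of 3 arrays are too small for the test of single outlying arrays, and none was run.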

How the results depend on the processing

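Of the members' single values over 5 comparisons under other settings and without single arrays, 836 stayed on their side of the threshold, 37 lost a call and 7 gained one. A called value changed sign in 0 cases, while uncalled values near 0, such as those of Comp, Acan and Sox5 with TGFb, changed sign under some settings. The Mgp difference of responses was -0.54 with normexp, -0.58 on the authors' values, -0.92 with 50 units added and -2.25 to -2.55 without single arrays, the ends being without replicates 1 and 3 of the control vehicle arrays. Members called for that difference were thus 0 with normexp and 0 on the authors' values, against 1. The normexp values hold an offset of 50 by construction, and how the authors' values were corrected is not given in the sources used here.

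Members called for knockdown with vehicle were 2 with normexp, on the authors' values and with slide as a block, and 1 to 2 without single arrays. For knockdown with TGFb they were 2 with median scaling and 2 with the replicate block, and 2 to 5 without single arrays. Genes called over the whole array were 1469 with median scaling for TGFb in knockdown cells (against 2291) and 4344 for knockdown with vehicle (against 6722). For the difference of responses they were 7 with median scaling, 45 with slide as a block, 11 with the replicate block, 34 with 50 units added and 4 to 27 without single arrays, against 21. The cause of these shifts was not tested.

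Replicate numbers were not used to pair the samples. Only 4 of 18 pairs of arrays with the same number deviated together with r above 0.1, against 12 of 12 pairs on the same slide. Those 4 pairs also shared a slide. Pairs with the same number on different slides had r from -0.528 to 0.0365, so no shared deviation by number was seen there. Because arrays also deviated together by slide, this check does not settle whether equal numbers mark shared cultures. Slide 1 held only vehicle arrays and slide 4 only TGFb arrays, and the main fit did not include slide. With the replicate block the calls for knockdown with TGFb of Scx (adjusted p = 0.0625) and Sox9 (0.0595) and for TGFb in control cells of Sox9 (0.0984) were lost, and no other call of a member changed. Signal near background limits Mgp, Scx and Comp most.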
